A study of Mus musculus with 8 samples.

Results

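The windows described here are methylated, CpG-dense stretches of the mouse genome that lie away from promoters. The genome was divided into fixed 1 kb windows, and windows on chromosomes 1 to 19 were taken by the following rule. At least 30 cytosines were measured in the window, with each strand counted apart. The window centre lay more than 5 kb from the transcription start site of any curated RefSeq transcript, predicted transcripts left out. The methylation level of the window, averaged over its cytosines and over the 8 samples, was at least 80%. The rule found 1091 windows, among 2429 dense windows away from start sites, 9694 dense windows in all and 268335 windows with any measured cytosine. With the start sites of predicted transcripts included, the number was 990. The members were thus chosen by their mean level, and that the level is high is a description and not a result.

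DNA came from cells labelled as type A spermatogonia, of F1 C3H/HeN males at postnatal day 6. They were isolated from the testis with magnetic beads against CD49f (Itga6). The dams of the arsenic group were given sodium arsenite at 85 ppm in their tap water on gestational days 8 to 18, and control dams had tap water alone. Each group had 4 samples, and each sample pooled 8 testes from 4 mice, so a pool and not a mouse is the replicate. Methylation was read by reduced representation bisulfite sequencing (RRBS), in which MspI cuts DNA at CCGG before bisulfite treatment, and the share of reads that keep C at a cytosine is its methylation level.

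In mammals most CpGs are methylated, and the dense clusters of CpGs that stay unmethylated are mainly promoters. Dense CpGs inside gene bodies and in transposable elements are typically methylated instead, and in male germ cells this methylation is laid down again before birth, after the erasure in primordial germ cells. LINE-1 (L1) elements are retrotransposons whose promoter lies in their 5′ end and, in the mouse, is built of repeated units called monomers. Methylation of these promoters in the male germ line is known to keep the elements silent.

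Sequences from a few of the members with the most measured cytosines are printed below. They are not typical, since the Shroom3 window has 122 CpGs and the Zfp865 window 92, against a median of 31 over all members. Each sequence is a stretch of the GRCm38 reference (the coordinates of mm10), printed on the plus strand with every CpG in capitals. The first is the 200-base coding stretch with the most CpGs, 31, in the Shroom3 window, the member with the most measured cytosines, and the next is the coding stretch with the most CpGs, 27, in the window of Zfp865, a zinc finger gene. The third is the 200-base stretch with the most CpGs, 13, in a window inside an intron of Gm38510, and the last pair are 2 neighbouring 208-base repeat units of an intergenic window whose nearest start site belongs to Chordc1.
Shroom3, chr5:92942201-92942400: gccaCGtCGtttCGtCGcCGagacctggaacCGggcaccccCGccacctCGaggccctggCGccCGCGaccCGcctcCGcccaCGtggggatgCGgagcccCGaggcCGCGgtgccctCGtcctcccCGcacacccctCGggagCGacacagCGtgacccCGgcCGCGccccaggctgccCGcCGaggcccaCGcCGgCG
Zfp865, chr7:5031627-5031826: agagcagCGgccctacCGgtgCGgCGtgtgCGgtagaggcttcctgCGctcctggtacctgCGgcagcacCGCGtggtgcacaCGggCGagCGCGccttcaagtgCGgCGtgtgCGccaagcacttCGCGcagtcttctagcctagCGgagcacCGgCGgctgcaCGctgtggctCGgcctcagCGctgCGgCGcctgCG
Gm38510 intron, chr1:85223663-85223862: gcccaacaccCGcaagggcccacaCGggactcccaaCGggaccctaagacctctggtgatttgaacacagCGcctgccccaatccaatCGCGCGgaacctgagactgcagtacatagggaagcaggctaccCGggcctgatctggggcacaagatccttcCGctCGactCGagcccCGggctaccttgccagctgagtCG
Chordc1 distal, unit 1, chr9:18009356-18009563: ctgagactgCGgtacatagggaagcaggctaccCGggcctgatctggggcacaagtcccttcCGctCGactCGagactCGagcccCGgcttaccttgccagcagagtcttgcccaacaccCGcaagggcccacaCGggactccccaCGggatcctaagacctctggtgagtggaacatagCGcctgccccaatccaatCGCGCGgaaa
Chordc1 distal, unit 2, chr9:18009564-18009771: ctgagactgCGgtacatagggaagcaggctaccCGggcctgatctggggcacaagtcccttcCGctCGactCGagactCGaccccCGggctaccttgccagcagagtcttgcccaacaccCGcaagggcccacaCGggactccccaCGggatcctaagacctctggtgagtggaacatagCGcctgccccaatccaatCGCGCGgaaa
The 45 cytosines measured in the Shroom3 stretch had a level of 83.0% ± 3.38 (SD, n = 4) in control and 88.6% ± 2.78 in arsenic samples. The 44 in the Zfp865 stretch had 80.7% ± 1.42 and 81.7% ± 3.38. The 2 repeat units match at 205 of 208 bases, and their 9 measured cytosines each had levels of 91.9% and 94.8% over the 8 samples.

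Coverage summed over all measured cytosines was 96428439 to 133406260 in a sample, of which 1789558 to 2581967 fell on the 40350 member cytosines. A read counts once at each cytosine it covers, so these sums are not numbers of reads. The median coverage of a member cytosine was 33 to 49 reads in a sample, against 31 to 44 for all cytosines. The labelled cell type was checked on a pair of promoter lists that are known to lack methylation in the male germ line, and both went against it. Promoters of maternally imprinted genes had a mean level of 57.4% over the 10 of 14 that were covered, from 40.9% to 76.7% by gene, and the sample means ran from 56.0% to 62.4% in control and from 53.1% to 61.8% in arsenic. Promoters of genes active in germ cells, among them Dazl and Ddx4, had a mean of 82.4% over 11 of 12, from 60.7% to 94.9% by gene, with sample means of 81.5% to 84.7% and 79.6% to 84.8%. The label is therefore used only as the name of the samples, and the part of other cells in the values below was not tested.

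Dense windows away from start sites lay mostly toward either end of the scale. Of the 2429, 711 had a mean level under 20%, 627 had 20% to 80% and the 1091 members had 80% or more, 509 of them 90% or more. Among the members, 460 were exonic, holding at least 100 bases of an exon, 167 were intronic and 464 were intergenic, which is 42.2%, 15.3% and 42.5%. By the same overlap rule the 1338 dense windows below the threshold split differently, with 29.4% exonic, 20.03% intronic and 50.6% intergenic. The split of members between exonic and intronic depends on that rule. With context taken from the centre base, 313 members were exonic, 312 intronic and 466 intergenic. On the edge of the rule, a window distal to Scgb2b26 at 80.03% and one distal to Cdk1 at 80.06% were just inside, and exonic windows of Nod2 and Dst, both at 79.97%, were just outside.

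**Figure D1:**
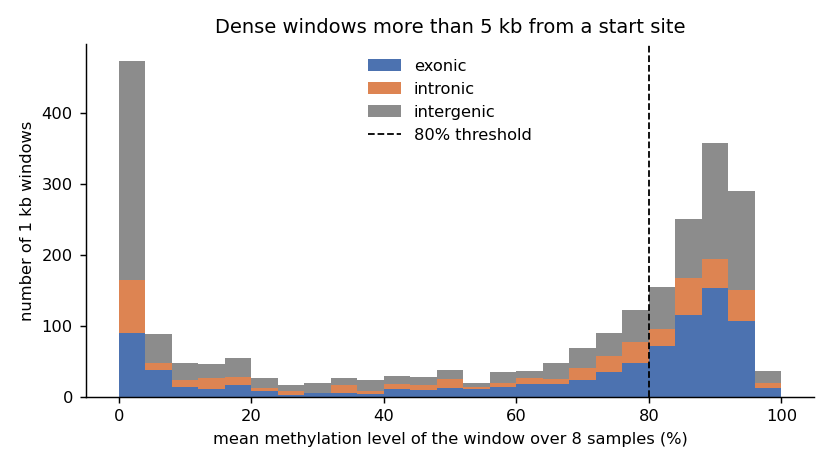
Number of dense 1 kb windows (at least 30 measured cytosines, centre more than 5 kb from a start site) by mean methylation level over the 8 samples in percent, stacked by gene context, with the 80% threshold dashed. The 1091 windows right of the line are the members, and the 593 windows under 10% form the other end.

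The members were methylated through most of their cytosines. Of the 40350 member cytosines, 10736 had a mean level of 95% or more, 13935 had 90% to 95% and 11431 had 80% to 90%. Only 208, or 0.515%, were below 5%, and 207 of these stand in a CpG of the reference. The other strand was measured at 151 of the 208, and it was below 5% as well at 140. The mice were C3H/HeN and the reference is C57BL/6J, and whether these CpGs exist in the mice was not tested.

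These cytosines made the widest spread inside a window. The exonic window of Leo1, a subunit of the Paf1 complex of transcription elongation, held 3 cytosines below 5% among 31, and its cytosines ranged from 0% to 99.4%. The exonic window of Hdc, which encodes histidine decarboxylase, and a window distal to Snai2 held 4 each. At the other extreme, the 36 cytosines of the highest member, distal to Klf12 with a mean of 98.0%, lay between 95.4% and 99.6%.

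The sequence around the members was methylated too, a measure the rule did not use. With cytosines of all dense windows away from start sites left out, cytosines 500 to 1000 bases from a member's centre had a mean level of 84.3% over the 652 members with any, and those 4500 to 5000 bases away had 74.2% over 252. Around dense windows at 20% to 80% the corresponding levels were 64.6% and 64.0%, with a peak of 73.6% between them at 3000 to 3500 bases. Members had 76.9% at that distance. Around windows under 20% the nearest and farthest levels were 17.5% and 48.7%. In the nearest stretch the level around members was 84.3% ± 0.412 (SD, n = 4) in control and 84.3% ± 0.127 in arsenic samples. The level around members fell with distance from the window, and the level around windows under 20% climbed.

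**Figure D2:**
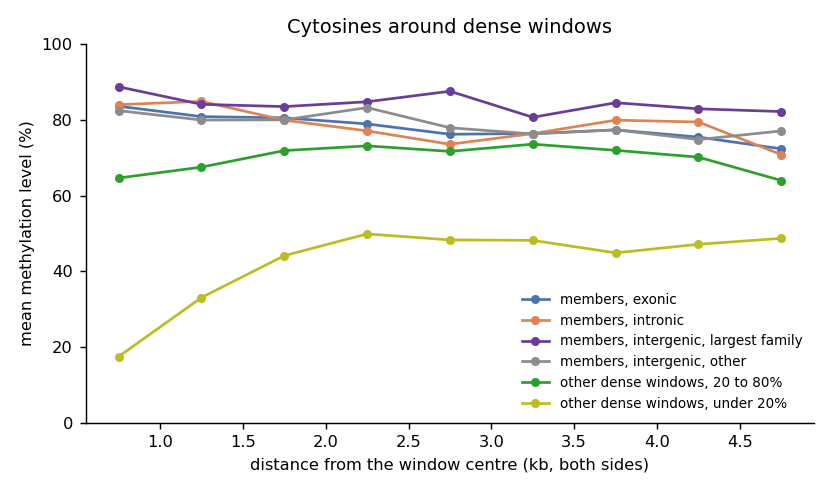
Mean methylation level in percent of the measured cytosines around dense windows, in steps of 500 bases from the window centre on both sides, for 4 kinds of member and for the other dense windows. Lines around members start at 82.4% to 88.7% and stay above those around windows at 20% to 80%, while the line around windows under 20% starts at 17.5%.

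Most exonic members held coding sequence. At least 100 coding bases were present in 440 of the 460, with a median of 464.5 coding and 618 exon bases of the 1000 in a window, and 182 reached into the last exon of a transcript. They belonged to 398 genes. The 5 with the most measured cytosines lay in Shroom3, an actin-binding protein that shapes epithelial cells, with 114 cytosines, in Zfp865 with 109 and 80, in Speg, a kinase of striated muscle, with 78, and in Bcl11b, a zinc finger transcription factor of T cell development, with 76. The Shroom3 window (chr5:92942001-92943000) is coding along its whole length, has 122 CpGs and a GC content of 73.3%. Its level was 80.3%, 86.8%, 83.8% and 85.5% in control samples 1 to 4 and 91.6%, 85.2%, 86.5% and 87.7% in arsenic samples 1 to 4, and the groups overlapped.

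The first Zfp865 window (chr7:5031001-5032000) is also coding throughout, and the sequence best matches itself at a shift of 84 bases, the length of 28 codons, where 42.9% of bases are the same. Zinc finger proteins carry arrays of fingers, and each finger with its linker is a repeat of that kind. Its level was 81.1%, 78.5%, 79.8% and 81.3% in control samples 1 to 4 and 81.1%, 83.9%, 84.5% and 83.2% in arsenic samples 1 to 4. The lowest arsenic sample lay between the controls, so the groups overlapped.

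Of 14 gene families searched by symbol, zinc finger genes held the most members and are also the largest, and no enrichment was tested. There were 39 member windows in 36 of 476 such genes, 37 of them exonic, against 21 among the other dense windows away from start sites. Their levels ran from 81.7% to 96.7%, the median difference between arsenic and control was 0.0270 points over the 39, and 19 were lower in arsenic. There were 8 members in 6 of 61 kinesin and dynein genes, 7 in 7 of 397 solute carriers, 4 in 4 of 98 potassium channels and 4 in 4 of 26 calcium channels. No member lay in a Hox, protocadherin or mucin gene, where 3, 0 and 1 of the other dense windows lay.

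Most genes held a single member, 482 of 544, and Plec held the most, 5. Plec encodes plectin, a large protein that links the parts of the cytoskeleton. All 5 windows were exonic, with levels over the 8 samples of 83.6%, 97.3%, 94.6%, 97.6% and 94.1% along the chromosome. The lowest one ranged from 19.9% to 100% between its cytosines, and the highest from 94.4% to 100%. Zfhx3, a homeobox and zinc finger transcription factor, Chd7, a chromatin remodeller, Cit, a kinase of cytokinesis, Nphp4, a protein of the ciliary base, and Rusc2 held 4 each, with mean levels from 86.8% to 91.6%. The regions of H19, Meg3, Rasgrf1 and Zdbf2, whose imprints come from the father, held 0 members within 50 kb. Windows within 5 kb of a start site were left out by the rule, so this 0 does not give the level of these regions. A dense window away from start sites in an intron of Zdbf2 (chr1:63248001) had 2.48% and was no member.

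The densest intronic members lay in Pced1b with 61 cytosines, in Foxp4, a forkhead transcription factor, with 54, in Gm38510 with 51, in Atp10d, a lipid flippase of the cell membrane, with 49, and in Man1c1, a mannosidase that trims sugar chains in the Golgi, with 48. Their levels over the 8 samples were 88.9%, 92.2%, 92.5%, 88.4% and 91.6%. The Pced1b window (chr15:97253001-97254000) had 89.5%, 85.1%, 89.4% and 90.9% in control samples 1 to 4 and 89.6%, 91.9%, 86.3% and 88.7% in arsenic samples 1 to 4, and the groups overlapped. The most methylated intronic member lay in AI506816, at 97.7%.

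The densest intergenic members, named by the gene of the nearest start site, were those of Psma6 with 71 cytosines, Chordc1 with 60, Vmn2r103 with 59, Rtn4rl2 with 58 and Plekhb2 with 57. Their start sites were 21675, 282766, 118137, 12808 and 80511 bases away, and the levels were 89.3%, 92.6%, 85.2%, 96.3% and 86.3%. The Chordc1 distal window (chr9:18009001-18010000) is soft-masked over 99.8% of its bases, and it had 93.0%, 92.4%, 93.7% and 93.7% in control samples 1 to 4 and 92.7%, 89.5%, 92.1% and 93.9% in arsenic samples 1 to 4. The Psma6 window is mostly outside repeats, with 10.7% soft-masked. In both windows the groups overlapped.

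Many intergenic and some intronic members were related in sequence to other members. When each member was aligned with all others and linked at 80% identity over at least 200 bases, 324 of the 1091 joined in a single family and 71 in 17 smaller ones, which took in 320 intergenic, 64 intronic and 11 exonic windows in all. The largest family had 258 intergenic, 59 intronic and 7 exonic windows, which is 55.6% of the intergenic and 1.52% of the exonic members. Only 30 of the 1338 other dense windows away from start sites, 2.24%, were related to it. Soft-masked (repeat) sequence made up a median of 90.3% of the bases in the family and 5.95% in exonic members.

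Linking can chain unrelated repeats, and with 300 aligned bases the family fell into groups of 236, 51 and 12 windows and smaller ones. A long reading frame with the residues FADD, found in the reverse transcriptase of L1, lay within 8 kb of 122 of the 324 windows, of 8 of the other 767 members and of 6 of the 1338 other dense windows. In 110 of the 122 it started 500 to 5000 bases downstream of the window, at a median over the 122 of 2199 bases, which is the side on which the frame follows an L1 promoter. All 110 were in the first group, and 231 windows were such windows or aligned directly with one. In 20 of the family's windows at least 60% of the bases matched at a best shift of 208 bases, and in 12 at 201, like the units printed above. The Chordc1 distal window had a frame of 753 codons starting 1955 bases downstream, and the Gm38510 window, whose shift was 201, a frame of 1145 codons 1731 bases downstream.

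The third group was the most methylated. Its 12 windows had levels from 90.3% to 98.0% with a median of 96.8%, and 10 of the 12 lay within 8 kb of a long frame with the YxDD residues of retroviral reverse transcriptase, against 33 of the 767 members outside the family and 15 of the 1338 other dense windows. The medians were 91.2% in the first group, 93.1% in the second and 88.6% in members outside the family. In the first group the control samples had 90.02%, 90.001%, 90.58% and 90.50% and the arsenic samples 90.46%, 90.37%, 90.13% and 90.20%, which overlap. In the third they had 95.2%, 95.9%, 95.5% and 95.2% in control and 96.3%, 95.5%, 96.2% and 95.9% in arsenic, which overlap as well. Reads from young repeats can be placed on a wrong copy, so levels of single windows in these groups are less certain than those of exonic windows.

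**Figure D3:**
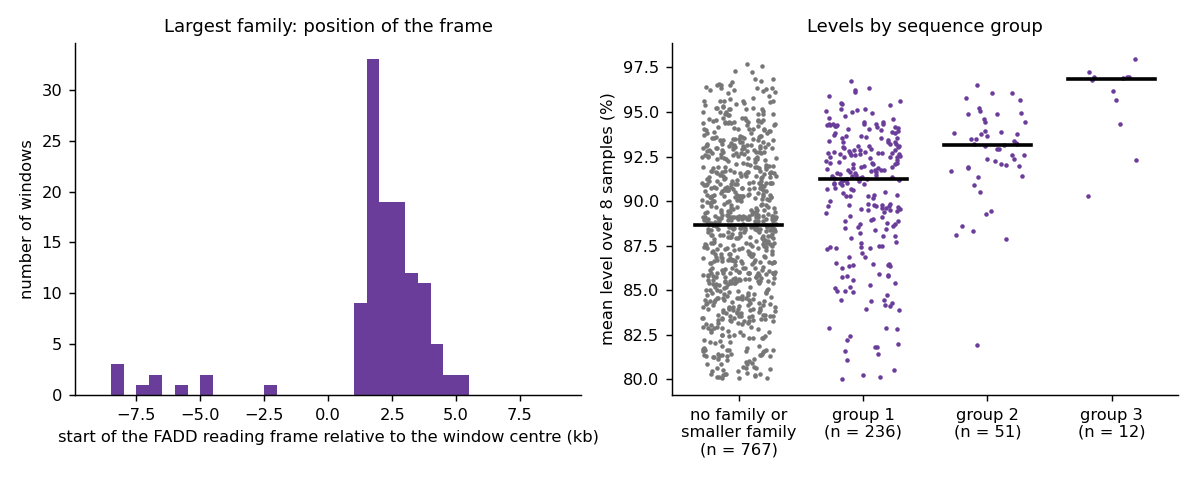
Left, start of the reading frame with FADD relative to the window centre, in kb, with positive values downstream on the strand of the frame, for the 122 windows of the largest family that have one. Right, mean level in percent over the 8 samples of each member outside that family and in its 3 largest groups, with black lines at the medians of 88.6%, 91.2%, 93.1% and 96.8%. Most frames start 1 to 5 kb downstream.

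The CpG content of members was close to that of windows at intermediate levels. The ratio of observed to expected CpGs had a median of 0.483 in members, 0.459 in windows at 20% to 80% and 0.624 in windows under 20%. It was 0.462 in exonic and 0.536 in family members. A GC content over 50% with a ratio over 0.6, as in CpG islands, was met by 102 members, 9.35%, and by 346 of the 711 windows under 20%, 48.7%.

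The first comparison asked whether the members as a whole differed between arsenic and control. Their level was 88.9%, 88.8%, 89.5% and 89.4% in control samples 1 to 4 and 89.3%, 89.2%, 89.1% and 89.3% in arsenic samples 1 to 4. The arsenic samples all lay between the lowest and the highest control sample. The means were 89.15% ± 0.350 (SD, n = 4) and 89.21% ± 0.0949, a difference of 0.0591 points (exact permutation test over samples, two-sided, p = 0.714). With 70 assignments the smallest p this test can give is 0.0286.

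The contexts were compared in the same way. In exonic members control and arsenic had 88.79% ± 0.347 and 88.78% ± 0.174, in intronic members 88.76% ± 0.265 and 88.84% ± 0.2204, and in intergenic members 89.65% ± 0.388 and 89.77% ± 0.103 (SD, n = 4). The differences were -0.0109, 0.0837 and 0.120 points, with exact permutation p of 0.971, 0.629 and 0.543 and Benjamini-Hochberg adjusted p over the 3 contexts of 0.971, 0.943 and 0.943. The largest sequence family had 90.77% ± 0.248 and 90.81% ± 0.0948, given with no test because the family was formed after the data were seen. In all contexts control samples 1 and 2 lay below control samples 3 and 4.

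**Figure D4:**
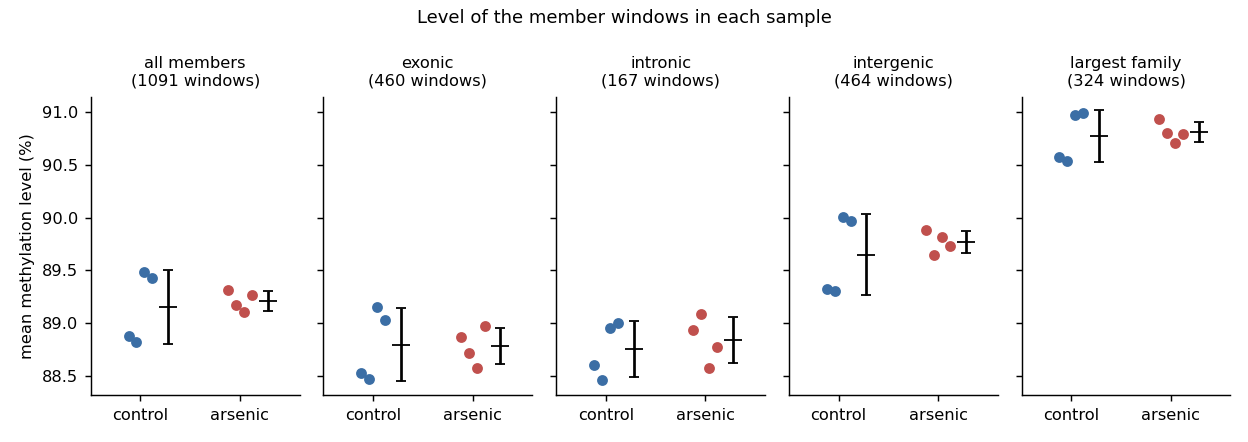
Mean methylation level in percent of the members in each of the 4 control and 4 arsenic samples, for all members, for each context and for the largest sequence family; points are samples and black marks the mean with SD. In each panel the groups overlap, and the control samples fall in a lower and an upper pair.

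The next comparisons asked whether members differed from other windows in their response. Over all 198209 windows with at least 3 cytosines the mean level was 65.08% ± 0.0727 in control and 64.68% ± 0.175 in arsenic samples, a difference of -0.392 points. Dense windows at 20% to 80% away from start sites differed by -0.406 points, methylated dense windows near start sites by 0.320, and methylated windows away from start sites with 3 to 29 cytosines by -0.192. Members minus these classes gave 0.465, -0.261 and 0.251 points between arsenic and control, with exact permutation p of 0.0571, 0.2 and 0.2 and adjusted p over the 3 contrasts of 0.171, 0.2 and 0.2. None passed the threshold of 0.05, which a single contrast of the 3 could not do with 4 samples a group, since its smallest possible adjusted p is 0.0857.

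Single members were compared next. An F test from logistic regression on the summed reads, scaled for overdispersion, with q of at most 0.01 and at least 10 points, called 0 members and 0% of the 198209 windows tested, with a lowest q of 0.977. An unadjusted p under 0.05 was found for 61 members, 34 lower and 27 higher in arsenic, or 5.59%, against 4.51% of all windows. No member differed by 10 points, so the minimum difference alone gives 0 here. With q of at most 0.01 and no minimum, limma on log2 ratios still called 0 members, and the F test called 0 at a q of 0.05. The likelihood-ratio test without overdispersion, which takes no account of spread between pools, then called 77 members lower and 103 higher, together 16.5%, against 8.27% of all windows. Members hold at least 30 cytosines and the windows tested at least 3, so these shares come from windows with unlike numbers of cytosines. In arsenic 548 members were lower and 543 higher, the median difference was -0.00239 points, and 90% of the members lay between -2.06 and 2.42 points. Only 3 members, 0.275%, differed by 5 points or more, against 8.46% of all windows tested. The share was 2.79% for methylated dense windows near start sites and 4.15% for dense windows at 20% to 80% away from them. It was 5.11% for methylated windows away from start sites with 3 to 29 cytosines. The 3 members were Rbm47 by -6.73, Plppr4 by 5.84 and a window distal to B4galt6 by 5.03, named here because they were seen to be largest.

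The groups did not overlap in 26 members that were lower in arsenic, 2.38%, and in 13 that were higher, 1.19%. Among all windows tested the shares were 2.06% and 1.07%, so the members' shares were near the background. The 3 with the lowest unadjusted p in the F test on each side are described next, since all shared the same q of 0.977. Their unadjusted p ran from 0.000984 to 0.00731.

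Slc19a1 encodes the reduced folate carrier, which brings folate into cells. Its exonic window (chr10:77042001-77043000, 762 coding bases, 35 cytosines) had 96.6%, 95.1%, 96.3% and 97.0% in control samples 1 to 4 and 92.4%, 93.4%, 92.4% and 91.6% in arsenic samples 1 to 4. The means were 96.3% ± 0.844 and 92.4% ± 0.741, and the lowest control lay above the highest arsenic sample.

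Rab4a, a small GTPase of endosome recycling, has a window with 291 bases of its last exon, all noncoding, and the other bases outside its exons, with 46 cytosines and levels of 90.5% ± 0.306 in control and 88.3% ± 1.07 in arsenic. A window of Cit with 144 exon bases had 95.9% ± 0.908 and 94.1% ± 0.518. These were the other two on the lower side, and had differences of -2.22 and -1.87 points.

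On the higher side, the window of Stox2 (chr8:47193001-47194000, coding throughout, 47 cytosines) had 88.8%, 89.3%, 90.6% and 86.8% in control samples 1 to 4 and 94.7%, 92.2%, 93.3% and 94.7% in arsenic samples 1 to 4. The means were 88.8% ± 1.57 and 93.7% ± 1.21, a difference of 4.89 points. Tnrc18 (chr5:142787001-142788000, 867 coding bases, 65 cytosines) had 81.3%, 85.1%, 81.6% and 86.4% and then 89.4%, 89.3%, 88.1% and 86.4%, with means of 83.6% ± 2.52 and 88.3% ± 1.41, and its highest control and lowest arsenic sample were both at 86.4%. Snrk, a kinase related to SNF1, had 92.7% ± 0.875 and 94.0% ± 0.268.

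**Figure D5:**
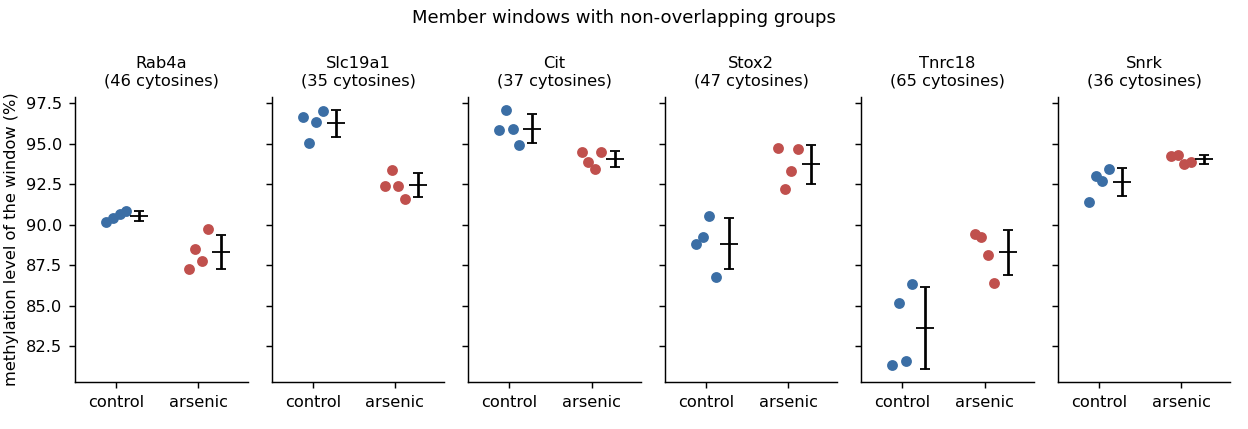
Methylation level in percent of 6 member windows in each of the 4 control and 4 arsenic samples, with the mean and SD in black. Rab4a, Slc19a1 and Cit are lower and Stox2, Tnrc18 and Snrk higher in arsenic; each has non-overlapping groups, and none passed the adjusted test.

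Single cytosines were called by the likelihood-ratio test on reads pooled by group, with q of at most 0.01 and at least 10 points, the rule of the study. Of the 40350 member cytosines, 120 were hypoDMCs, 0.297%, against 0.323% of all 2130064 cytosines, and 148 were hyperDMCs, 0.367%, against 0.228%. The hypoDMC share was near that of all cytosines and the hyperDMC share was above it, which was not tested further. Groups did not overlap in 58 of the hypoDMCs, 0.144% of member cytosines against 0.145% of all, and in 57 of the hyperDMCs, 0.141% against 0.0974%. The DMCs lay in 205 members, 18.8%, against 22.9% of dense windows at 80% or more within 5 kb of a start site. The share was 28.7% for dense windows at 20% to 80% away from start sites and 10.7% for all dense windows, whatever their level. This test takes no account of spread between pools, and with overdispersion scaling 0 member cytosines were called in either direction. Calls over all cytosines were not counted with that scaling, so whether this 0 is particular to members is not known.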

How the data were processed

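RRBS data of 4 control and 4 arsenic pools labelled as type A spermatogonia were used. According to the labels and the methods, the authors trimmed reads with Trim Galore 0.6.5, mapped them to mm10 with Bismark 0.22.3 and joined samples with methylKit 1.22.0, each strand kept separate. The deposited values are counts of covering, methylated and unmethylated reads at each cytosine, at least 10 reads in every sample, without normalization.

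A level is methylated over all reads, averaged over the cytosines of a window. Start sites, exons and sequence came from RefSeq on GRCm38.p6, whose coordinates are those of mm10, using the 45756 curated transcripts, which the annotation marks as not predicted. Exonic means at least 100 exon bases, intronic that the centre lies in a gene body. Windows with at least 3 cytosines were tested by logistic regression with overdispersion and an F test, and cytosines by the likelihood-ratio test, which is methylKit's regression without overdispersion. eDMR was not run. q is the Benjamini-Hochberg value over all windows or cytosines. Exact permutation tests, two-sided, compared averages between the groups. Pools may share dams or days, which the labels do not give, so p-values of the permutation tests, the F test and limma rest on the spread between these pools. Those of the likelihood-ratio test take no account of that spread.

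Windows were aligned with blastn 2.17.0+ (e-value of at most 1e-10, 80% identity over 200 bases). Reading frames held at least 400 codons within 8000 bases. limma 3.58.1 in R 4.3.3, scipy 1.17.1, pandas 2.3.3, networkx 3.6.1 and matplotlib 3.10.9 under Python 3.11.15 were used. The window tests were run on simulated data in which only windows at intermediate levels were changed, so that check does not cover changes in the members. The rule, the lists and the named windows were chosen with earlier results of these data known. Named windows were the 5 densest in each context, the 3 lower and 3 higher with the lowest q (ties by p) and non-overlapping groups, the 3 highest, the 3 with the widest spread between cytosines, the 2 on either side of 80% and those of the gene with most members. Alternatives covered coverage, weighting, strands, the member limits, the test, single samples left out and pairing by number.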

Additional observations from a re-analysis of the deposited data

Results flagged for a closer look

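Among 90 groups of 4 samples examined, for the averages and the named windows, 2 held a sample whose gap to the nearest of the others was large for the range of the group, and chance alone gives about 1 in 20. In the Plec window at chr15:76179001, control 2 had 93.4% against 95.3% to 95.4% in the other controls. In the Dst window at chr1:34189001, which lies just below the 80% limit and is no member, arsenic 2 had 77.5% against 79.4% to 79.6% in the other arsenic samples.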

How the results depend on the processing

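In exact permutation tests no difference in average level passed an adjusted p of 0.05 under any alternative that gives one, and the lowest adjusted p was 0.0857, for members against dense windows at 20% to 80% with coverage-weighted levels. The unadjusted p of that contrast in the exact permutation test was 0.0286, the smallest it can give. This contrast kept its sign under every alternative, from 0.0559 points with coverage of at least 20 to 0.575 without arsenic sample 4. The differences between arsenic and control over all members and in the contexts were near 0, and some changed sign. Over all members it was -0.0381 points at a mean level of at least 90% and -0.0579 with at least 20 cytosines. For exonic, intronic and intergenic members it was 0.0671, -0.0786 and -0.0335 with coverage of at least 20. For exonic and intronic members it was 0.101 and -0.0617 with context by the centre base, and 0.0404 and -0.0255 with all RefSeq start sites. For exonic members it was 0.000580 with weighted levels and 0.261 with both strands summed. Leaving out single samples gave -0.0514 to 0.170 points over all members, -0.120 to 0.109 in exonic, -0.0140 to 0.173 in intronic and 0.00362 to 0.237 in intergenic members.

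The number of members was 509 at 90%, 4516 with at least 20 cytosines and 282 with at least 40. It was 305 with coverage of at least 20, 990 with all RefSeq start sites and 137 with strands summed. HypoDMCs and hyperDMCs were 41 and 41, 383 and 408, 40 and 54, 35 and 43, and 102 and 131 in the same order, strands summed not included. At 90% the hyperDMCs thus did not outnumber the hypoDMCs, while over all cytosines there were 6885 hypoDMCs and 4867 hyperDMCs in the main setting. With overdispersion scaling 0 member cytosines were called in either direction. Calls over all cytosines were not counted with that scaling, with coverage of at least 20 or with single samples left out. Leaving out single samples gave 115 to 150 hypoDMCs and 139 to 193 hyperDMCs. Without arsenic sample 1 both were 139, and without arsenic sample 2 there were 147 hypoDMCs and 144 hyperDMCs. HyperDMCs outnumbered hypoDMCs when any of the other samples was left out. Window calls with a minimum difference of 10 points were 0 under each alternative, a count set by that minimum wherever no member reached it. Without a minimum the F test at q of 0.05 and limma called 0, and the likelihood-ratio test without overdispersion called 77 lower and 103 higher.

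Same-numbered samples did not deviate together (correlations from -0.00533 to 0.0152), so the numbers were not taken as a pairing. With the replicate block the difference over all members stayed at 0.0591 points (exact sign-flip permutation test, p = 0.875, smallest possible 0.125). Leaving out the largest sequence family gave 0.0674 points, and leaving out cytosines below 5% gave 0.0597. These 2, and the likelihood-ratio test and limma without a minimum, were chosen after seeing the data. With 4 pools a group, the exact tests could not go below 0.0286, or 0.0571 with a sample left out.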

Other observations

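Read counts in the members favoured even numbers. Of the unmethylated counts of 4 or more at member cytosines, 72.4% were even, against 63.1% at all cytosines, while 52.4% of the methylated counts at member cytosines were even. The median overdispersion of the window counts was 3.82 in members and 2.48 over all windows tested. The cause was not tested.

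Members were not spread evenly over the chromosomes. Chromosome 4 held the most, 111, then chromosome 8 with 88 and chromosome 10 with 77. As a share of the dense windows away from start sites they ranged from 29.4% on chromosome 19 to 54.7% on chromosome 9. The largest sequence family had 32 windows on chromosome 1 and 4 on chromosome 11.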
